A study of Homo sapiens with 6 samples.

Results

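The plasminogen activation system turns the circulating zymogen plasminogen into plasmin, a serine protease that cleaves fibrin and matrix proteins. Urokinase (uPA, encoded by PLAU) and tissue-type plasminogen activator (tPA, encoded by PLAT) make the activating cut. The uPA receptor uPAR (PLAUR) holds urokinase on the cell surface, plasminogen receptors such as PLGRKT hold the zymogen there, and serpins block the activators by forming covalent complexes with them. In invasive breast cancer cells this system is best known for proteolysis of the matrix at the cell surface.

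The genes described here are 6 of the 74852 loci listed in the deposited expression table, namely PLAU, PLAT, PLAUR, PLGRKT, SERPINE2 and SERPINB2. They were taken by gene symbol, as activators, receptors and inhibitors of plasminogen activation, with a rule that uses no measured value. The choice was nevertheless made with earlier results of these data known. Each matched 1 locus carrying that symbol alone, and all 6 passed the filter of a mean of at least 10 normalized reads over the libraries, which 18849 loci passed.

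The RNA came from MDA-MB-231, an established triple-negative breast cancer line with a mesenchymal shape and high invasiveness, in which the RNA-binding protein Sam68 (encoded by KHDRBS1) was silenced to ask what it regulates. The labels name no added allele or drug. They were transfected in 2 rounds with pooled siRNAs, 4 that target KHDRBS1 (the si-SAM68 group) or 4 without a target in it (the si-CTRL group), and the sample labels place harvest 24 h after the second round, while the methods count from transfection and name no second round. There were 3 libraries in each group, and nothing in the labels says whether they came from separate cultures, so the p-values measure the spread between these samples, which may be technical. In bulk RNA, fewer cells that express a gene and less RNA per cell cannot be told apart.

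The siRNAs are shown because they are the labelled difference between the groups. In the strand listed by the study, written 5′ to 3′, the capitals mark the bases of the target strand that lie opposite the seed of the guide strand (guide bases 2 to 8).
siSAM68_1: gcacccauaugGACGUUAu
siSAM68_2: gaaagagcgagUGCUGAUa
siSAM68_3: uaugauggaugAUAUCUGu
siSAM68_4: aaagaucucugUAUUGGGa
siCTRL_1: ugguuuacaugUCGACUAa
siCTRL_2: ugguuuacaugUUGUGUGa
siCTRL_3: ugguuuacaugUUUUCUGa
siCTRL_4: ugguuuacaugUUUUCCUa
All 4 Sam68 siRNAs matched a KHDRBS1 transcript over their 19 bases, and none of the control siRNAs did. The longest run that any of the 4 Sam68 siRNAs shared with a transcript of the 6 genes was 9 bases, in PLAUR, and the shortest of these longest runs was 7 bases, in PLAU and in PLGRKT.

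The libraries held 52625492 to 82568487 reads assigned to loci. KHDRBS1 fell from 14960 ± 620 normalized reads in si-CTRL to 618 ± 45.8 in si-SAM68 (mean ± SD, n = 3 each), 4.13% of the control level, with a log2 fold change of -4.60 (SE 0.083; adjusted p = 2.1e-09, limma with Benjamini-Hochberg adjustment over all loci tested). All 7 genes expected in MDA-MB-231, among them VIM and CD44, held 3138 to 173162 normalized reads, and ESR1, PGR, CDH1 and EPCAM stayed under 20 normalized reads in every library, whereas ERBB2 ranged from 2413 to 3447. The 5 markers of other cell types that had a locus of their own (PTPRC, CD3E, PECAM1, VWF and ALB) were each under 20, and their sum was 36.1 to 41.2 in si-CTRL and 20.1 to 30.4 in si-SAM68. One library stood apart: in si-SAM68 replicate 2 an rRNA locus took 15.1% of reads, against 1.83% to 3.17% in the others, so the values of PLAT, PLAUR and each call that was lost without it are also given without that library.

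After Sam68 silencing the activator PLAT and the receptor PLAUR fell, 2 of the 6 genes, and none rose. PLAT was reduced to 52.4% of its control level and PLAUR to 73.2%. PLAU, PLGRKT, SERPINE2 and SERPINB2 did not pass the test. The same 2 genes were called by limma, edgeR and DESeq2, and with each tool 0 of the 6 were higher at an unadjusted p under 0.05. Across all loci tested 10.7% passed in limma, made up of 6.23% that were lower and 4.47% that were higher. The 2 of 6 is read beside that background, which is not matched for level. When only loci with a mean of at least 50 were fitted, 2165 of 15034 passed, and all 6 genes reached that mean. The median log2 fold change of the 6 genes was -0.26, with 5 of the 6 estimates below 0, against 0.01 over all loci. A gene's 3 control and 3 silenced values did not overlap in 2 of the 6, beside 33.9% of all loci tested. The thresholds stated by the study are an unadjusted p of at most 0.05 and a fold of at least 1.5. Applied to the limma fit, they called 1 of the 6, PLAT, beside 7.67% of all loci. The study used its own test, so these need not be its calls.

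**Figure D1:**
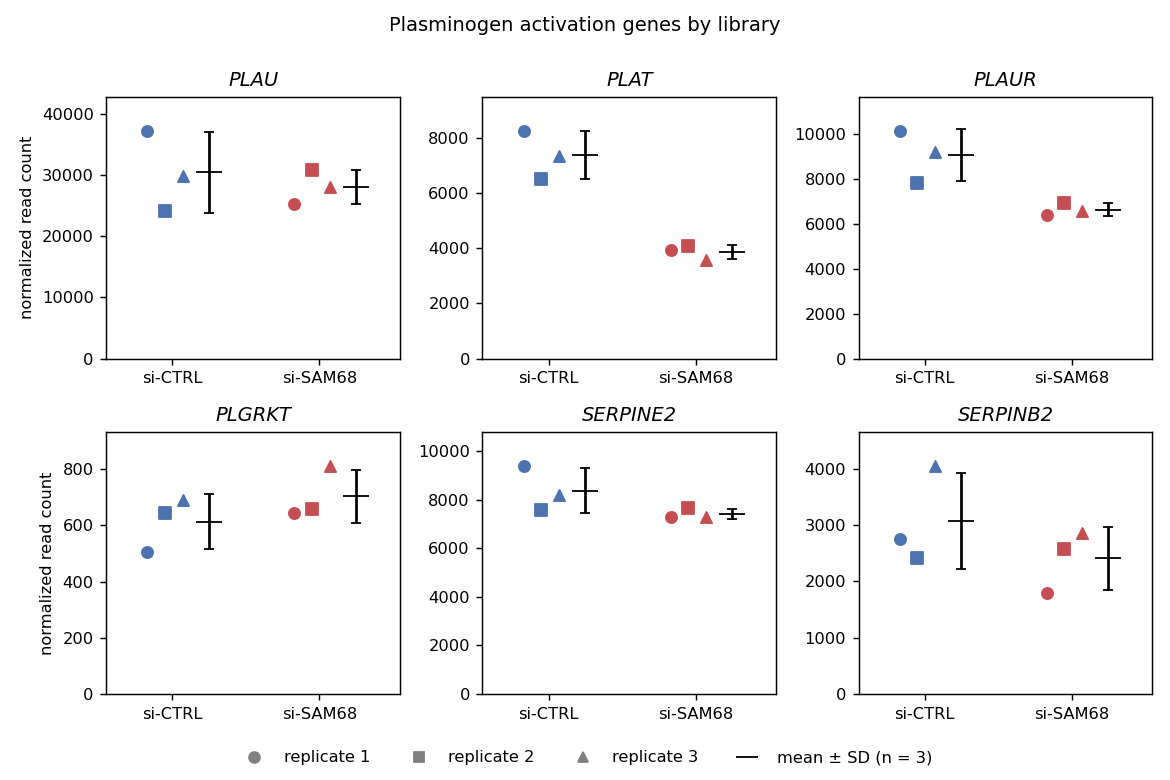
Normalized read count (vertical axes, each from 0) of the 6 genes in each library, with si-CTRL in blue and si-SAM68 in red. Marker shapes give the replicate number, and black bars the mean ± SD of 3 libraries. In PLAT and PLAUR every si-SAM68 library lies below every si-CTRL library, and in the other 4 genes the groups overlap.

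Of the activators, PLAT fell and PLAU did not pass. Tissue-type plasminogen activator, PLAT (locus GSHG0029551, hg19 chr8:42032236-42065242), is a fibrin-binding serine protease and the activator used as a thrombolytic drug. Its control libraries 1, 2 and 3 held 8278, 6527 and 7376 normalized reads, and its silenced libraries 3941, 4098 and 3582 in the same order. The lowest control library was therefore above the highest silenced library. The mean fell from 7394 ± 875 to 3874 ± 264 (SD, n = 3), a log2 fold change of -0.93 (SE 0.099, 95% interval -1.15 to -0.71; limma adjusted p = 0.00081), or a 1.90-fold decrease. Each same-numbered pair of libraries was lower after silencing, by log2 differences of -1.07, -0.67 and -1.04. The exact two-sided permutation test over the 6 libraries gave p = 0.1, the smallest that 3 against 3 can give. Leaving out each library in turn kept the call in 6 of 6 fits, with a log2 fold change between -1.01 and -0.84 and a highest adjusted p of 0.0115, and without si-SAM68 replicate 2 the log2 fold change was -0.97 (limma adjusted p = 0.0034). Among all loci, 239 were called lower with a log2 fold change at or below that of PLAT.

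Urokinase, PLAU (locus GSHG0003456, hg19 chr10:75670859-75677259), is the activator that uPAR concentrates at the cell surface. Its 3 control libraries held 37314, 24225 and 29921 normalized reads, and its 3 silenced libraries 25290.2, 30897 and 28052, in replicate order. The silenced values lay inside the range of the control values. The means were 30487 ± 6563 and 28080 ± 2804, with a log2 fold change of -0.10 (SE 0.142, 95% interval -0.42 to 0.22; limma adjusted p = 0.69; exact permutation p = 0.7). The pairs did not share a direction, at log2 differences of -0.56, 0.35 and -0.09, and the estimate was 0.06 without si-CTRL replicate 1, the highest library. The lower end of the interval came near the estimate for PLAUR (-0.44), so these data do not show that PLAU was constant. An overlapping locus, C10orf55 (chr10:75669725-75682535), spans PLAU and held 438 ± 39.6 reads in si-CTRL and 410 ± 19.2 in si-SAM68, a small part of the PLAU count.

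The relation between the activators was also read within each library, where scaling between libraries has no part. Per kb of exon, PLAT stood at 21.6%, 26.2% and 24.0% of PLAU in the control libraries, in replicate order, and at 15.2%, 12.9% and 12.4% in the silenced ones. The 3 silenced ratios lay below the 3 control ratios, with means of 24.0% ± 2.32 and 13.5% ± 1.46 and a log2 difference of -0.83 (exact permutation p = 0.1). The ratio of receptor to ligand, PLAUR to PLAU, was 33.2%, 39.5% and 37.6% in si-CTRL and 30.9%, 27.5% and 28.6% in si-SAM68. These groups did not overlap either, with means of 36.8% ± 3.21 and 29% ± 1.73 and a log2 difference of -0.34 (exact permutation p = 0.1). These ratios share the PLAU count, so they are not independent of each other.

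**Figure D2:**
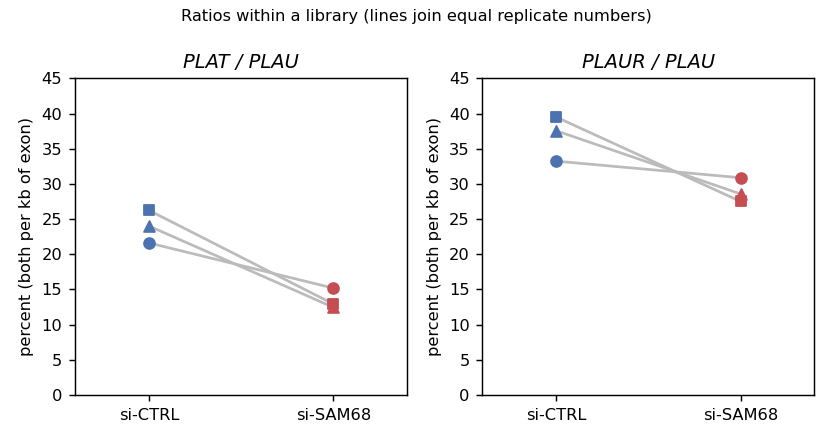
PLAT and PLAUR as a percentage of PLAU within each library, each gene per kb of exon (vertical axes from 0), with si-CTRL in blue and si-SAM68 in red, and lines joining equal replicate numbers. All 3 lines go down in both panels, from 21.6% to 26.2% down to 12.4% to 15.2% for PLAT and from 33.2% to 39.5% down to 27.5% to 30.9% for PLAUR.

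The urokinase receptor PLAUR (locus GSHG0015885, hg19 chr19:44150248-44174699) is a GPI-anchored protein of the Ly6/uPAR family that binds urokinase and vitronectin. Its control libraries held 10155, 7836 and 9202 normalized reads in replicate order, against 6394, 6957 and 6563 for the silenced libraries. Every silenced library was below every control library, though si-SAM68 replicate 2 and si-CTRL replicate 2 lay close together. The mean fell from 9065 ± 1165 to 6638 ± 289 (SD, n = 3), a log2 fold change of -0.44 (SE 0.098, 95% interval -0.66 to -0.22; limma adjusted p = 0.021), or a 1.36-fold decrease. The pairs differed by -0.67, -0.17 and -0.49 on the log2 scale, and the exact permutation test gave p = 0.1. This call was less stable than that of PLAT. It was lost without si-CTRL replicate 3 (limma adjusted p = 0.063) and without si-SAM68 replicate 1, 2 or 3 (limma adjusted p = 0.083, 0.057 and 0.097), with a log2 fold change of -0.48 without replicate 2, while the log2 fold change remained between -0.54 and -0.36 in all 6 fits.

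PLGRKT (locus GSHG0030652, hg19 chr9:5357969-5630076), a transmembrane plasminogen receptor that exposes a C-terminal lysine, was the least abundant of the 6 genes. Its values were 504, 645 and 692 in si-CTRL and 643, 657 and 811 in si-SAM68. The lowest library was a control and the highest a silenced one, with overlap between them. The same-numbered pairs were all higher after silencing, by log2 differences of 0.35, 0.03 and 0.23. The means were 614 ± 98.1 and 704 ± 93.3, with a log2 fold change of 0.20 (SE 0.142, 95% interval -0.11 to 0.52; limma adjusted p = 0.39; exact permutation p = 0.5). Its locus interval contains CD274 and PDCD1LG2, the genes of the immune checkpoint ligands PD-L1 and PD-L2, and the strand setting of the counting is not given in the sources used here. CD274 rose from 586 ± 63.9 to 923 ± 71.5 normalized reads, a log2 fold change of 0.66 (limma adjusted p = 0.0068). PDCD1LG2 held 1284 ± 312 normalized reads in si-CTRL and 1188 ± 127 in si-SAM68, a log2 fold change of -0.09 (limma adjusted p = 0.75). Its count was above that of PLGRKT in every library, and that of CD274 was above it in every si-SAM68 library. Whether reads of CD274 or PDCD1LG2 entered the PLGRKT count was not tested.

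The serpin members inhibit the activators. SERPINE2 (locus GSHG0018379, hg19 chr2:224839765-224904036) encodes protease nexin-1, which inhibits thrombin, urokinase and tPA. Its values were 9371, 7557 and 8174 in si-CTRL and 7299, 7650 and 7274 in si-SAM68. One silenced library, replicate 2, lay above the lowest control, so the groups overlapped narrowly, and the pairs differed by -0.36, 0.02 and -0.17 on the log2 scale. The means were 8367 ± 923 and 7408 ± 210, with a log2 fold change of -0.17 (SE 0.089, 95% interval -0.37 to 0.03; limma adjusted p = 0.25; exact permutation p = 0.2).

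SERPINB2 (locus GSHG0014102, hg19 chr18:61554933-61571120) encodes plasminogen activator inhibitor-2, a clade B serpin that stays largely inside the cell. Replicates 1, 2 and 3 held 2752, 2416 and 4043 normalized reads with control siRNA and 1788, 2573 and 2853 with Sam68 siRNA. Replicate 3 was the highest library of both groups, the groups overlapped, and the log2 differences of the pairs were -0.62, 0.09 and -0.50. The means were 3070 ± 859 and 2405 ± 552, with a log2 fold change of -0.34 (SE 0.205, 95% interval -0.80 to 0.11; limma adjusted p = 0.31; exact permutation p = 0.5). SERPINB2 had the widest spread within a group, the highest control library being 1.67 times the lowest, against 1.24 times for SERPINE2. The log2 interval of SERPINB2 includes both 0 and the size of the PLAUR decrease.

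**Figure D3:**
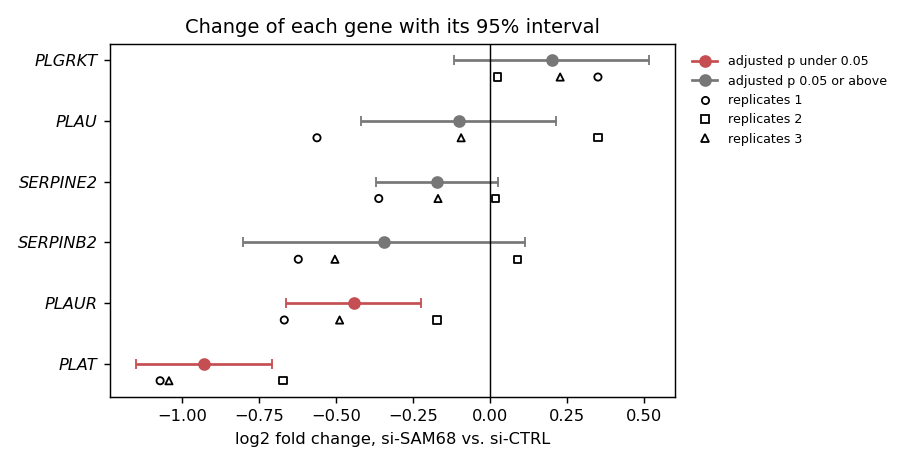
Log2 fold change, si-SAM68 vs. si-CTRL, of the 6 genes (filled circles) with the 95% interval of the limma fit, and the log2 difference of each same-numbered pair below it (open symbols). Red marks an adjusted p under 0.05. The intervals of PLAT (-1.15 to -0.71) and PLAUR (-0.66 to -0.22) lie below 0 and those of the other 4 genes include 0.

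Among the control libraries, 4 of the 6 genes had the same order of values. PLAU, PLAT, PLAUR and SERPINE2 were all highest in si-CTRL replicate 1 and lowest in replicate 2, an order found in 21.9% of all loci tested. In si-SAM68 these 4 genes were highest in replicate 2, the library with the high rRNA share, as were 27.9% of all loci tested. SERPINB2 shared the low control replicate 2, and PLGRKT had its lowest control value in replicate 1.

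By level, urokinase led the 6 genes. Per kb of exon, PLAU held 11346 ± 2442 normalized reads in si-CTRL, above PLAUR in every library. PLAUR followed at 4120 ± 530, then PLAT at 2681 ± 317 and SERPINE2 at 2657 ± 293, which overlapped each other, SERPINB2 at 1414 ± 396 and PLGRKT at 658 ± 105 (SD, n = 3 throughout). In si-SAM68 the order was PLAU (10450 ± 1043), PLAUR (3017 ± 131), SERPINE2 (2352 ± 66.7), PLAT (1405 ± 95.8), SERPINB2 (1108 ± 254) and PLGRKT (755 ± 100). PLAT thus moved from overlapping SERPINE2 to lying below it in all 3 libraries and overlapping SERPINB2.

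**Figure D4:**
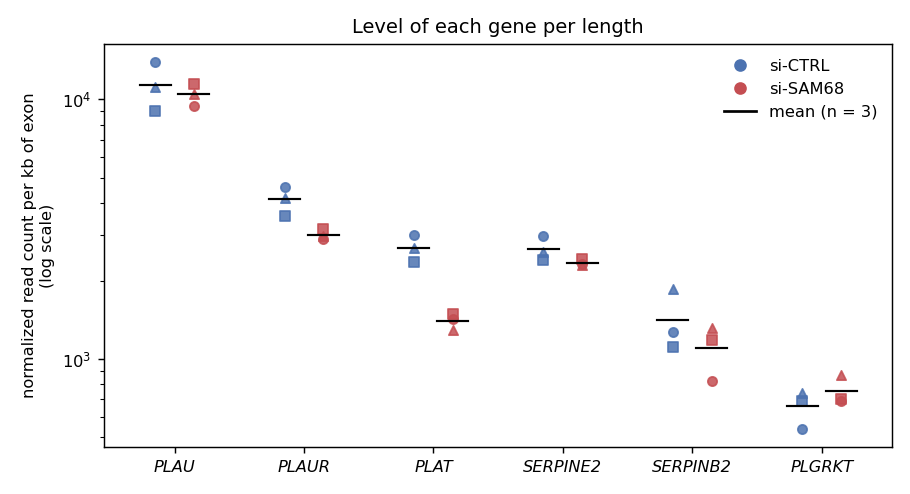
Level of each gene as normalized reads per kb of exon on a log axis, with 3 si-CTRL libraries in blue, 3 si-SAM68 libraries in red and the mean as a line. All libraries of PLAU lie at 9016 or above and those of the other genes at 4616 or below, and PLAT is the only one whose mean drops past that of another gene, SERPINE2.

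Around the 6 genes, 44 further genes of 6 lists that cover the system were examined and 28 of them were tested. Of these 28, 4 rose and 3 fell, which is 25.0% called beside 10.7% of all loci, and their median log2 fold change was 0.10. The lists were chosen with earlier results of these data known and were not matched to all loci for level. These shares are therefore a description only. Plasminogen itself (PLG), a product of the liver, was listed at 0 in every library, as were KLKB1 and F11 of the same list, and F12, the remaining activator, did not pass (log2 fold change -0.29, limma adjusted p = 0.32). Of 7 proteases that can convert pro-urokinase to its active form, the 3 that were tested (CTSB, CTSL and ST14) did not pass, with CTSL nearest at a log2 fold change of -0.29 (limma adjusted p = 0.064) as the 1 gene of these under an unadjusted p of 0.05 and the 1 called by DESeq2, edgeR calling 0, and HPN, KLK4, KLK6 and TMPRSS4 were listed at 0.

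Among 7 tested receptors of uPA and tPA and clearance receptors, PLAUR included, 3 fell and 1 rose. This was 57.1% called beside 10.7% of all loci tested, in a small list chosen with earlier results of these data known. MRC2 encodes uPARAP/Endo180, a collagen-uptake receptor that associates with uPAR. It had 4502, 3724 and 3923 normalized reads in si-CTRL and 2834, 2524 and 2127 in si-SAM68, with no overlap, and fell by 0.70 on the log2 scale (SE 0.116, limma adjusted p = 0.0061). VLDLR, a member of the LDL receptor family that takes up complexes of urokinase with serpins, had 575, 644 and 675 in si-CTRL and 328, 392 and 382 in si-SAM68, and fell by 0.78 (SE 0.115, limma adjusted p = 0.0036). SORL1, a sorting receptor that binds uPAR and activator-inhibitor complexes, went the other way, from 434, 465 and 417 to 673, 617 and 622, a log2 fold change of 0.54 (SE 0.0996, limma adjusted p = 0.0101). These 3 calls were kept in each of the 6 fits that left out a library. LRP1, IGF2R and LRPAP1 did not pass, and LRP2 was listed at 0.

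Of the 7 plasminogen receptors, all tested, 2 rose and none fell with limma, edgeR or DESeq2 (0 lower at an unadjusted p under 0.05), and their median log2 fold change was 0.17. In limma this was 28.6% called, beside 10.7% of all loci tested. S100A10 encodes p11, the partner of annexin A2 that binds plasminogen through its C-terminal lysine. It had 10880 normalized reads in its lowest control library and 12355 in its highest, against 14594 to 15733 in si-SAM68, with a log2 fold change of 0.36 (SE 0.077, limma adjusted p = 0.018). KRT8, a keratin also described as a plasminogen-binding protein at the cell surface, rose from 17463 ± 1223 to 21591 ± 1510, a log2 fold change of 0.31 (SE 0.083, limma adjusted p = 0.044). The S100A10 call was lost without any one of the 3 si-SAM68 libraries (highest limma adjusted p 0.0899) and with empirical Bayes without a trend (limma adjusted p = 0.073). The KRT8 call was lost without si-CTRL replicate 3 or any si-SAM68 library (highest limma adjusted p 0.138), with a replicate block (limma adjusted p = 0.0696), without the filter, with quantile normalization and without a trend. Without si-SAM68 replicate 2 the log2 fold change was 0.38 for S100A10 (limma adjusted p = 0.064) and 0.33 for KRT8 (limma adjusted p = 0.11). ENO1, ANXA2, HMGB1 and DLD did not pass.

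None of the 4 tested inhibitors of the activators or of plasmin passed in limma or edgeR, in either direction, and DESeq2 called 1, TFPI2, lower. The 4 were SERPINE2, SERPINB2, SERPINA5 and TFPI2, with a median log2 fold change of -0.36. SERPINA5 lay near the filter, at 13.9 ± 5.35 normalized reads in si-CTRL and 10.7 ± 4.88 in si-SAM68 (log2 fold change -0.37, SE 0.451). TFPI2, a Kunitz-type inhibitor of plasmin, was the 1 gene of them under an unadjusted p of 0.05 in limma. Its log2 fold change was -0.39 (limma adjusted p = 0.11). SERPINF2, SERPING1, SERPINI1 and HRG were below the filter, and A2M and CPB2 were listed at 0. Of 10 tested surface and matrix partners of uPAR, 1 rose and 1 fell. In limma this was 2 of 10 called, beside 10.7% of all loci tested, in a small list chosen with earlier results of these data known. CAV1, the structural protein of caveolae, rose from 60584 ± 1374 to 93098 ± 2180 (log2 fold change 0.62, SE 0.071, limma adjusted p = 0.0010), and all 6 fits without a library kept it. The locus holding ITGB3, the vitronectin receptor subunit, together with EFCAB13 fell from 2185 ± 94.5 to 1613 ± 94.1 (log2 fold change -0.44, SE 0.083, limma adjusted p = 0.011), a call that was lost without si-SAM68 replicate 3 (limma adjusted p = 0.063), and its reads cannot be assigned to either gene. Its partner subunit ITGAV, the other integrins ITGA3, ITGA5, ITGB1 and ITGB5, EGFR, THBS1 and VTN did not pass in limma, although ITGA3, ITGAV and ITGB5 were higher at an unadjusted p under 0.05 and DESeq2 called ITGB5 higher, and FPR1 and FPR2 were listed at 0.

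**Figure D5:**
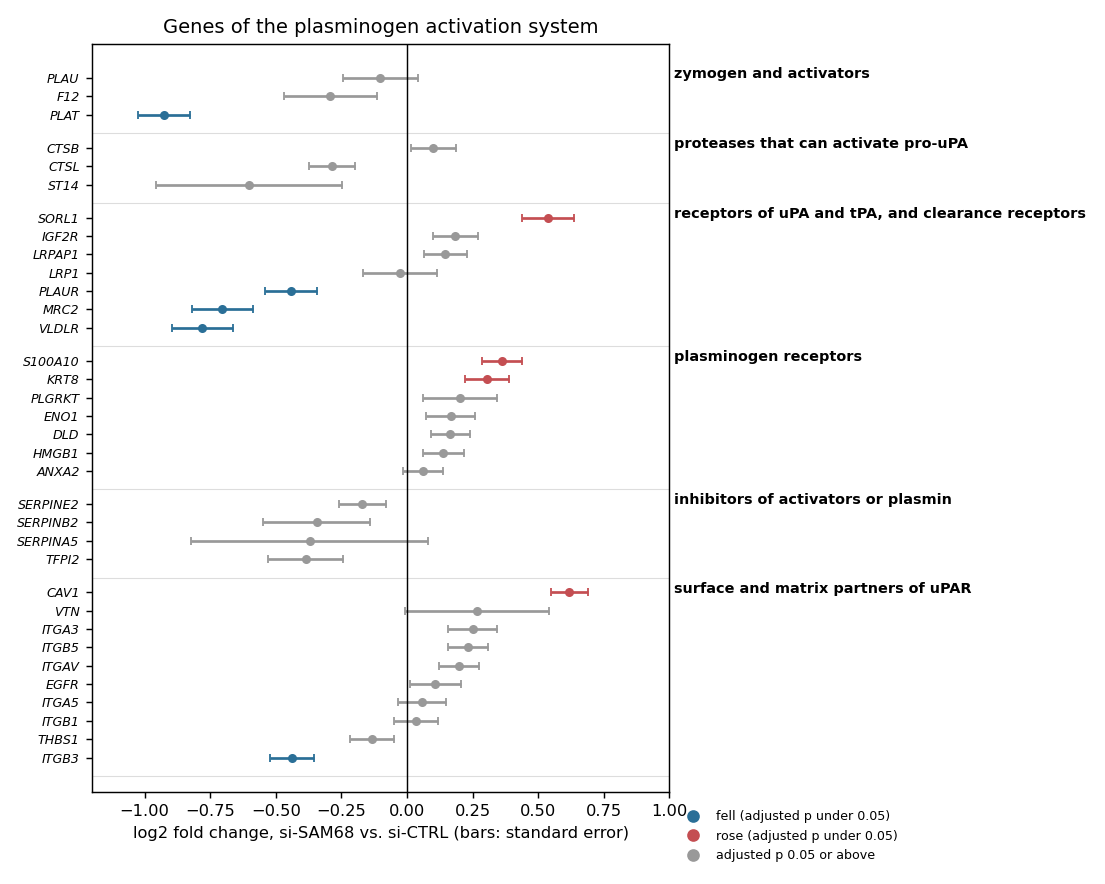
Log2 fold change, si-SAM68 vs. si-CTRL, of the 34 tested genes of the 6 lists, the 6 genes included, with bars of 1 standard error from the limma fit. Blue marks the 5 genes that fell, red the 4 that rose and grey the 25 that did not pass, and ITGB3 stands for the locus it shares with EFCAB13. Of the 34, 26.5% were called, beside 10.7% of all loci tested. Receptors and clearance receptors, PLAUR included, hold 4 of the 9 calls and the inhibitors none.

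The loci whose values over the 6 libraries most resembled those of the called genes were taken from 12112 loci with 1 gene symbol and a mean of at least 50. For PLAT they were SDE2 (Pearson r = 0.998) and NR4A1 (r = 0.998), and for PLAUR they were AJAP1 (r = 0.9996) and HBEGF (r = 0.999). SDE2 had 1852, 1541 and 1667 normalized reads in si-CTRL and 1112, 1113 and 1052 in si-SAM68. HBEGF, an EGF receptor ligand, had 2037, 1286 and 1651 in si-CTRL and 902, 1060 and 961 in si-SAM68. Over 6 points that include the group difference, and with the best of many loci taken, such values are high by selection and are given as a description only.

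Finally, the sequences of the siRNAs were set against the 6 genes. In the longest annotated 3′ UTR of each gene, no match to the seed of a Sam68 siRNA guide (7 bases opposite guide bases 2 to 8) was found in PLAT or PLAUR, nor in PLAU, PLGRKT or SERPINE2. SERPINB2 held 1, at UTR position 450, for siSAM68_3, shown with the matched bases in capitals.
SERPINB2: tgtaataaATATCTGgaaaaaac
Of 13287 tested genes with an annotated 3′ UTR, 28.8% held such a match, at a median UTR length of 1320 bases, longer than the 760 bases of PLAT and the 362 of PLAUR. For the control pool, with the listed strand read as for the Sam68 siRNAs, PLAU held 3 matches, PLAUR 1 and SERPINB2 1, whereas PLAT, PLGRKT and SERPINE2 held none, beside 54.9% of the same genes. The PLAUR match, at position 190, was that of siCTRL_2.
PLAUR: ctaacacaTTGTGTGcctatatc
A match is a run of letters and says nothing about whether an siRNA acted on the transcript, which was not tested.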

How the data were processed

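Poly(A) RNA of MDA-MB-231 cells was sequenced in 3 si-CTRL and 3 si-SAM68 libraries. The deposited values are a normalized signal, read counts per FAST DB locus that the authors divided by DESeq2 size factors, on hg19, with STAR 2.4.0 among the tools in the submitters' processing notes. Dividing each library by the worth of 1 read returned whole reads for 100% of values (tolerance 0.01). Loci whose mean reached 10 (18849) were fitted with limma 3.58.1 (R 4.3.3, empirical Bayes with a trend) on log2(value + 1), so folds of low loci are understated, and p-values were adjusted by the Benjamini-Hochberg method over all of them, with an adjusted p under 0.05 as a call. As alternatives, edgeR 4.0.16 and DESeq2 1.42.0 were run on the recovered reads, among other settings. The scripts were tested on simulated data. Lengths and UTRs came from GENCODE on GRCh38 and siRNA sequences from the study's supplement. An item left out of the lists is not reported here. The members and gene lists were chosen with earlier results of these data known. Named genes were the members, KHDRBS1, list genes that were called, and for each called member the 2 loci most like it, while others are named as not tested or nearest to the threshold, the latter chosen after their values were seen. Deviations from the group means correlated between same-numbered libraries at 0.105, 0.231 and 0.125, against -0.125 to 0.007 otherwise. Within a group these deviations cancel at each locus, so positive same-numbered values push the others down and the contrast is partly built in. Pair differences are given by the replicate numbers in the titles, and whether the libraries were truly paired was not tested. The main limma fit and the permutation test took the libraries as unpaired, and the pairing entered the fit with a replicate block alone.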

Additional observations from a re-analysis of the deposited data

How the results depend on the processing

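The PLAT decrease kept its direction and its call under all 10 other settings and without each library. PLAUR kept its direction in all of them, but with empirical Bayes without a trend its log2 fold change of -0.44 had an adjusted p of 0.089 (limma), so 1 of the 6 genes was called there, as with the study's thresholds. Leaving out each library gave 1 to 2 called genes of the 6, log2 fold changes of -0.54 to -0.36 for PLAUR and -0.26 to 0.06 for PLAU, with 0.056 for PLAU without si-CTRL replicate 1, above 0 there alone. Of the 46 tested genes of all 8 lists, 11 were called, 23.9% beside 10.7% of all loci tested. Without a trend 7 of the 46 were called, beside 899 of 18849 loci. The study's thresholds called 5, beside 7.67% of all loci. When a library was left out, 5 to 14 were called (7 without si-SAM68 replicate 1 or 2, and 5 without replicate 3). The counts over all loci moved as well, as given below. With a replicate block PLAT (limma adjusted p = 0.0047) and PLAUR (0.041) kept their calls, and among the called list genes KRT8 alone lost its call. Over all loci, 2017 were called by limma, 2026 by edgeR and 2789 by DESeq2, 1697 with the replicate block, 899 without a trend and 625 to 2839 when a library was left out. The counts were 1103 when si-CTRL replicate 3 was left out and 923, 808 and 625 when si-SAM68 replicates 1, 2 and 3 were, each more than 1.5 times below 2017. The cause was not tested. At 403 to 728 recovered reads per library in the lower-count gene PLGRKT and 25012 to 33588 in PLAU, counting error was small. The standard errors and intervals came from the spread between 3 libraries per group, moderated by limma with the spread of other loci. They therefore do not measure the spread of each gene alone.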

Other observations

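The protein families of SERPINB2 and PLAUR were also read beyond plasminogen activation. Of 12 other clade B serpins listed, 4 were tested. With limma and edgeR 1 of them passed, and with DESeq2 2 did, SERPINB7 and SERPINB8. In limma this was 25.0% called, beside 10.7% of all loci tested. DESeq2 also called more loci than limma over the whole set, 2789 against 2017. SERPINB7, a neighbour of SERPINB2 on chromosome 18, rose from 238 ± 33.1 normalized reads in si-CTRL to 410 ± 41.7 in si-SAM68 (SD, n = 3), with every silenced library above every control and a log2 fold change of 0.79 (SE 0.141; limma adjusted p = 0.0084). Without si-SAM68 replicate 3 its adjusted p was 0.054 (limma). SERPINB8, on the same chromosome, had 1122, 914 and 1184 normalized reads in si-CTRL and 618, 831 and 878 in si-SAM68, a log2 fold change of -0.48 that did not pass in limma (adjusted p = 0.070). SERPINB1 and SERPINB6 did not pass, and the remaining 8 were not tested because their values were low.

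Of 10 other proteins with a Ly6/uPAR domain 8 were tested and 1 fell, 12.5% beside 10.7% called over all loci. LYPD6, a GPI-anchored modulator of Wnt receptors, had 997, 1150 and 1161 normalized reads in si-CTRL and 839, 817 and 764 in si-SAM68, with no overlap, and a log2 fold change of -0.45 (SE 0.097; limma adjusted p = 0.019). This call was kept in 1 of the 6 fits that left out a library, the one that dropped si-CTRL replicate 1. Its log2 fold change without si-SAM68 replicate 2 was -0.46 (limma adjusted p = 0.072). CD59, the complement inhibitor and the most abundant of this list, did not pass (log2 fold change 0.09, limma adjusted p = 0.58).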
